A study of Mus musculus with 4 samples.

Results

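The lung surfactant and airway genes described here were 9 genes, Sftpa1, Sftpb, Sftpc, Sftpd, Nkx2-1, Scgb1a1, Scgb3a2, Napsa and Abca3, of the 22905 genes with a named probe on the array. They were chosen from textbook knowledge of the lung, with earlier results of these same 4 arrays in view, so their differences between the diets are a description, and where they are counted against the cutoffs of the fit over all probes the count is not a test of them. Their levels were read in fetal livers of C57BL/6J mice at E14.5, from dams fed during gestation either a control diet (CD), with 4.3% of energy as fat, 19.2% as protein and 67.3% as carbohydrate, or a high-fat diet (HFD), with 60% as fat, 20% as protein and 20% as carbohydrate. Each group held 2 arrays, labelled as biological replicates, each hybridised with Cy3-labeled cRNA from total liver RNA. No genotype other than the strain was given, and the sources used here do not say how many fetuses or dams stand behind an array. The number of arrays limits the precision of every value below.

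Pulmonary surfactant is the film of phospholipid and protein that lowers surface tension in the air spaces. NKX2-1, a homeobox transcription factor that specifies lung epithelium and also thyroid and ventral forebrain, drives the genes of the hydrophobic surfactant proteins SP-B (Sftpb) and SP-C (Sftpc). The collectins SP-A (Sftpa1) and SP-D (Sftpd) bind microbial sugars, NAPSA is an aspartic protease that helps to mature SP-B, and ABCA3 loads lipid into the storage organelles of type 2 cells. Secretoglobins (Scgb1a1, Scgb3a2) are small proteins secreted by airway club cells. The liver is not a known site of surfactant production, while SP-D and NAPSA are also made outside the lung, among other sites in kidney.

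Promoter sequence was available in the RefSeq table (GRCm38.p6) for 4 of the 9 genes, Sftpb, Nkx2-1, Sftpa1 and Abca3. The windows of 250 bases before the start are printed for Sftpb and Sftpa1, because these 2 surfactant genes hold letters bound by NKX2-1. Capitals mark CTCAAG, an NKX2-1 core motif searched on both strands.
Sftpb (chr6:72304360-72304609, plus strand): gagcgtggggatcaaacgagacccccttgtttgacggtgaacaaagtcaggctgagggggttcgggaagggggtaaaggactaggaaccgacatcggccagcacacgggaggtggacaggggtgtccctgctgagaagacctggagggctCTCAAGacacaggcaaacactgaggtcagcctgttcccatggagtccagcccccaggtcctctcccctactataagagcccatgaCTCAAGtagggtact
Sftpa1 (chr14:41131538-41131787, plus strand): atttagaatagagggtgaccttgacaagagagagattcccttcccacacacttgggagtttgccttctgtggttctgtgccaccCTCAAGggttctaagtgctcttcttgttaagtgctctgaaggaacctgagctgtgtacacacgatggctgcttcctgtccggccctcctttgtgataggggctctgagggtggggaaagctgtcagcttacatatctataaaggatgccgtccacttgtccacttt
The Sftpb window held CTCAAG at 2 places, beginning 100 and 15 bases before the start, and the Sftpa1 window held it once, beginning 166 bases before the start. The windows of Abca3 and Nkx2-1 held 0 matches from 250 bases before to 50 after the start that the table uses. In 32815 promoter windows of that length, 15.9% held the motif on either strand, so a match is common. A forkhead core, TGTTTAC, occurred in 3.65% of these windows and in 0 of the 4. A match describes the letters only.

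Level is used below for the log2 signal of a probe minus the 75th percentile over all non-control probes on its array, and a difference is the mean HFD level minus the mean CD level. A probe counted as detected on an array where the scanner software marked it well above background. On the 4 arrays 65.4% to 70.0% of non-control spots were detected, and the lowest level of a detected probe lay between −6.02 and −5.57. The spread was wider between the CD arrays than between any CD and any HFD array, with an SD of probe differences of 0.60 against 0.44 to 0.54, while the HFD arrays differed by 0.37. All samples were labelled female. The Y-linked transcripts Ddx3y, Eif2s3y, Kdm5d and Uty were detected on replicate 1 of each group and on neither replicate 2, and Xist, the transcript of the inactive X chromosome, on replicate 2 of each group and on neither replicate 1. The labels and these transcripts did not match on 2 arrays, 1 in each group, and differences are therefore also given within each replicate number. The tissue carried its label, with 10 of 10 hepatoblast and hepatocyte genes and 8 of 8 erythroid genes detected on every array. Of the 2 brightest in each list, Serpina1a, a protease inhibitor of plasma, differed by −0.00 (SE 0.26), Alb, serum albumin, by −0.07 (SE 0.35), and the globins Hba-a1 by −0.09 (SE 0.25) and Hbb-bt by −0.09 (SE 0.27).

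Of the 9 genes, 5 were detected on all 4 arrays, 3 on some and 1 on none. Transcripts of Sftpc, Nkx2-1, Sftpb and Scgb3a2 were lower in both HFD livers than in either CD liver. Those of Sftpd, Scgb1a1 and Abca3 were higher in both HFD livers than in either CD liver, and Napsa and Sftpa1 overlapped between the diets. Over all genes, both HFD arrays lay under both CD arrays for 10.2% and over them for 19.3%. The lower HFD level was only just above the higher CD level for Sftpd (−1.47 against −1.54) and Scgb1a1 (−4.82 against −4.86). Scgb1a1 was not detected on CD replicate 2. RNA came from whole liver, so fewer cells of a type and less RNA per cell cannot be told apart.

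**Figure D1:**
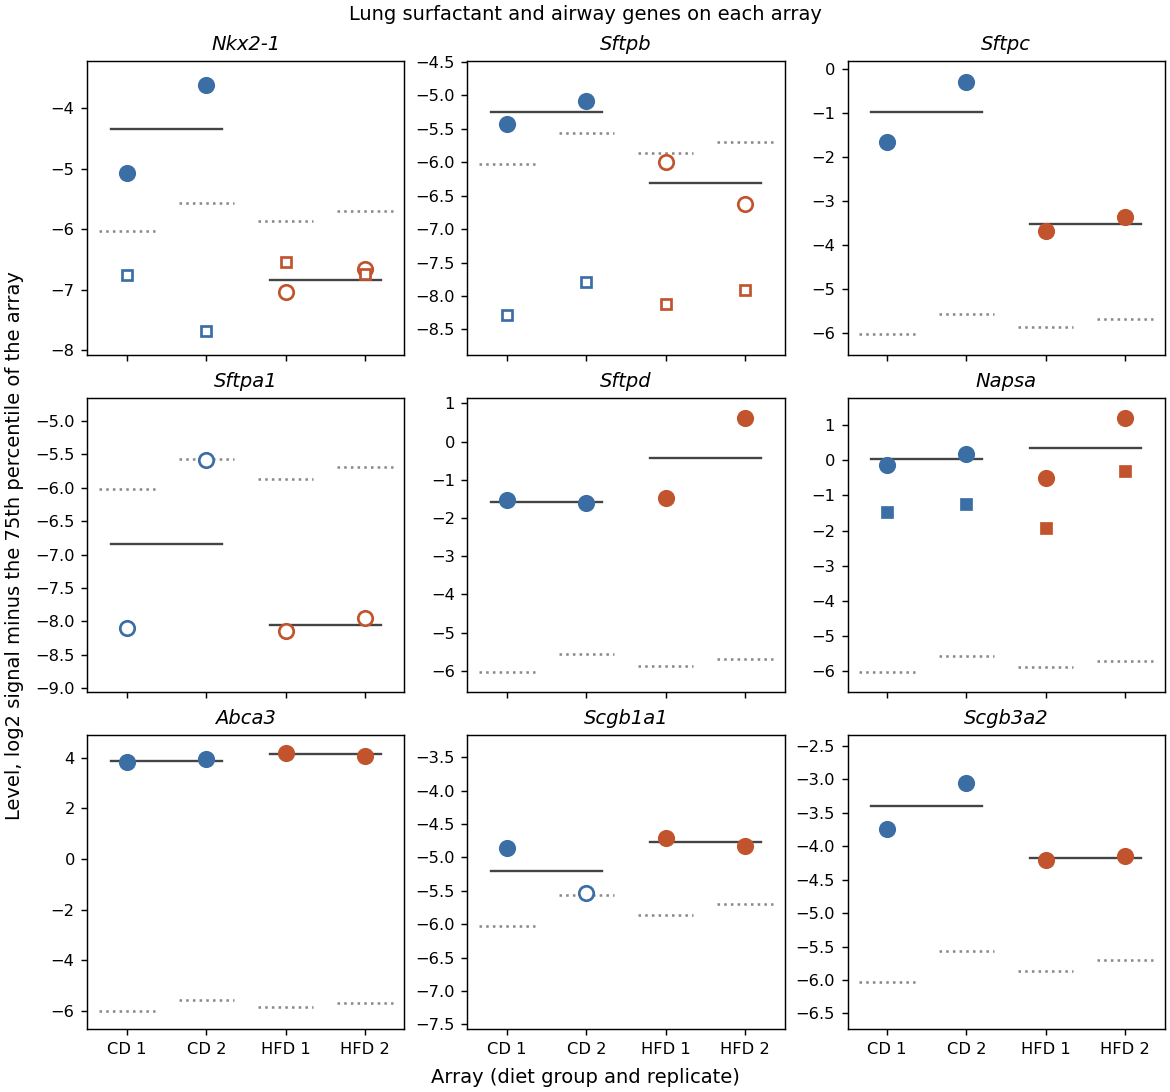
Level of each gene (log2 signal minus the 75th percentile of the array, vertical axis) on each array (horizontal axis), with circles for the brightest probe and squares for a second probe. Filled symbols are detected and open symbols are not, dotted segments mark the lowest level of any detected probe on that array, and solid lines are group means of the brightest probe. The vertical range differs between panels. Sftpc lies between −1.67 and −0.31 in CD and between −3.68 and −3.38 in HFD, and Sftpd stands at 0.61 on the second HFD array against −1.61 to −1.47 on the others.

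Nkx2-1, the regulator, was read by probe A_52_P216427 at −5.08 and −3.63 in CD and at −7.03 and −6.66 in HFD. It was detected on both CD arrays and on neither HFD array. The group means were −4.35 ± 1.02 and −6.84 ± 0.26 (SD, n = 2), a measured difference of −2.49 (SE 0.53). Because the HFD values lay below detection, only a bound on the difference of the group means is given, at least 2.69-fold lower at this scaling. For such a bound the CD mean was set against the mean of a floor over the HFD arrays. The floor was the lowest level of any detected probe, or of the probe itself where that was higher. Such a bound leaves out the spread between the CD arrays, which were 2.73-fold apart here, and it depends on the scaling. With normexp background correction the measured difference was −0.61. A second probe, A_66_P113793, was not detected on any array, at −6.75 and −7.67 on CD and −6.54 and −6.74 on HFD, so it gave no second reading of the gene.

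Sftpc, which encodes the most lung-restricted surfactant protein, was detected on all 4 arrays through its only probe, A_51_P328001. The raw intensities were 337 and 566 in CD and 75.4 and 87.6 in HFD. As levels these were −1.67 and −0.31 against −3.68 and −3.38, with means of −0.99 ± 0.96 and −3.53 ± 0.22 (SD, n = 2). The groups did not overlap, and the mean level was 5.81-fold lower in HFD (difference −2.54, SE 0.49). The CD arrays were themselves 2.56-fold apart, and the HFD arrays 1.24-fold. Leaving out 1 array at a time gave −3.22 without CD replicate 1, −1.86 without CD replicate 2, −2.38 without HFD replicate 1 and −2.69 without HFD replicate 2.

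Sftpb was close to the detection limit. Probe A_55_P2096266 read −5.42 and −5.08 in CD, where it was detected, and −6.0 and −6.62 in HFD, where it was not. The means were −5.25 ± 0.24 and −6.31 ± 0.44 (SD, n = 2), a measured difference of −1.06 (SE 0.28). The bound on the means was at least 1.44-fold lower at this scaling, while with normexp background correction the measured difference was −0.35. At the main scaling the difference was −0.89 without CD replicate 2 and −0.75 without HFD replicate 2, both under 2-fold. The second probe, A_51_P269134, was not detected on any array and differed by 0.03. Sftpb is the gene whose window above holds CTCAAG at 2 places.

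The collectin genes differed from each other. Sftpa1, whose window holds the motif once, was not detected on any array, at −8.09 and −5.58 on CD and −8.15 and −7.95 on HFD. Its measured difference of −1.22 rested on CD replicate 2, where the signal came just under the limit, and without that array it was 0.040. Sftpd was detected on all 4 arrays, at −1.54 and −1.61 on CD and at −1.47 and 0.61 on HFD. Thus 3 arrays lay close together and HFD replicate 2 stood above them, 4.22-fold over HFD replicate 1. The means were −1.57 ± 0.05 and −0.43 ± 1.47 (SD, n = 2), with a difference of 1.14 (SE 0.72) that became 0.11 without HFD replicate 2 and 2.18 without HFD replicate 1.

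Napsa, the protease, showed the same array apart. Its brighter probe, A_51_P146149, read −0.13 and 0.18 on CD and −0.51 and 1.20 on HFD, with means of 0.03 ± 0.22 and 0.35 ± 1.21 (SD, n = 2) and a difference of 0.32 (SE 0.61). The second probe, A_66_P132495, at −1.48 and −1.24 on CD and −1.92 and −0.31 on HFD, repeated this order of arrays. HFD replicate 2 exceeded HFD replicate 1 by 3.28-fold on the first probe and by 3.05-fold on the second. The difference turned to −0.54 without HFD replicate 2 and was 1.18 without HFD replicate 1.

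Abca3, the lipid transporter, varied little among arrays. It read 3.84 and 3.95 on CD and 4.19 and 4.09 on HFD, a difference of 0.24 (SE 0.16) with no overlap between groups. Abca3 is also transcribed outside the lung, and its promoter window held no CTCAAG.

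The secretoglobin genes differed in how well they were detected. Scgb3a2, made by airway epithelium, was detected on all 4 arrays at −3.73 and −3.05 on CD and at −4.21 and −4.15 on HFD. Its means were −3.39 ± 0.49 and −4.18 ± 0.04 (SD, n = 2), 1.73-fold lower in HFD (difference −0.79, SE 0.28), and −1.13 without CD replicate 1. Scgb1a1, the club cell marker, was detected on 3 arrays, at −4.86 and −5.53 on CD, the second of which was not detected, and at −4.71 and −4.82 on HFD. Its difference of 0.43 (SE 0.28) was 0.09 without CD replicate 2.

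Differences were also taken within the replicate numbers, which separate the arrays by their sex-linked transcripts. For Sftpc the differences were −2.01 for replicate 1 and −3.06 for replicate 2, and the measured ones for Nkx2-1, whose HFD readings were below detection, were −1.95 and −3.03. Sftpc was thus lower in HFD within each number, and further apart within replicate 2. Nkx2-1 was detected in CD and not in HFD within each number, so the size of its difference within a number is not known. For Sftpd the differences were 0.07 and 2.22, and for Napsa −0.38 and 1.02, so these differences lay mainly or wholly with replicate 2.

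**Figure D2:**
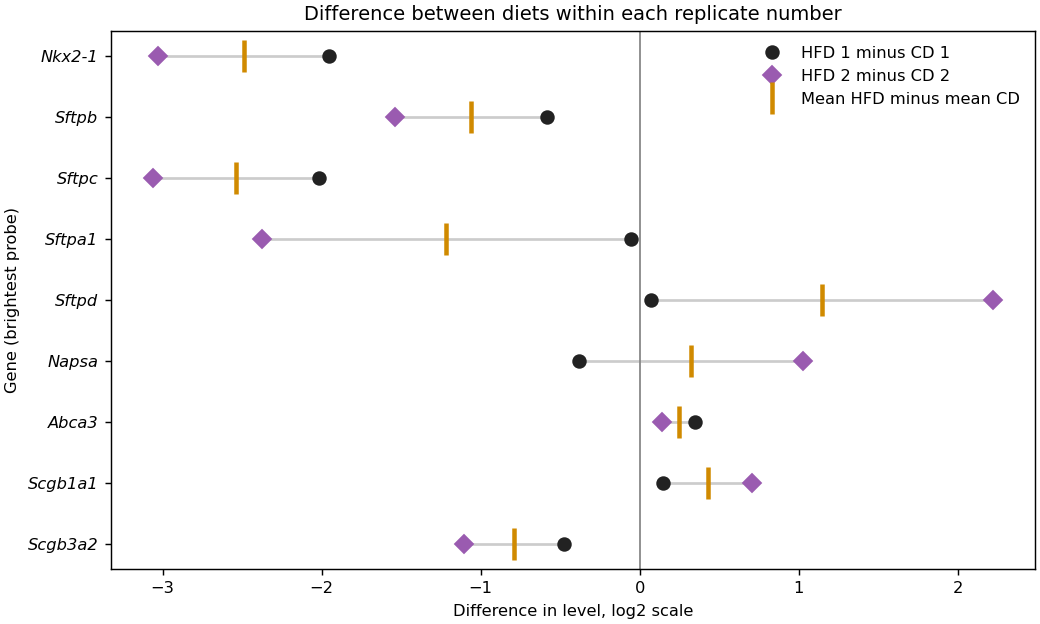
Difference in level between diets (HFD minus CD, log2 scale, horizontal axis) for each gene, within replicate 1 (circles) and within replicate 2 (diamonds), with the difference of the group means as a bar. Sftpc (−2.01 and −3.06) and Nkx2-1 (−1.95 and −3.03) lie below 0 in both, with Nkx2-1 below detection in HFD, and Sftpd lies at 0.07 in one and 2.22 in the other.

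At cutoffs of an unadjusted limma p under 0.05 and a difference of at least 2-fold, 8 of the 9 genes could be read, since Sftpa1 was too dim on some arrays to enter the fit. Of these, 3 (Sftpc, Nkx2-1 and Sftpb) were past the cutoffs as lower and 0 as higher, against 0.583% of the 18340 genes read in this way as lower and 0.284% as higher. Both HFD arrays lay under both CD arrays for 4 of the 9 genes, against 10.2% of all genes, and over them for 3 of 9, against 19.3%. The contrast was known when the genes were chosen, so nothing is read from these counts. Of the 41614 probes tested, 1372 had an unadjusted limma p under 0.05 and 0 passed Benjamini-Hochberg adjustment, as did 0 by the methods' t-test. The latter put 0 of the 9 genes past the cutoffs. The median difference of the 9 genes was −0.79, against 0.02 for all genes. It was 0.040 without CD replicate 2, the array on which 5 of the 9 (Sftpc, Nkx2-1, Sftpb, Scgb3a2 and Sftpa1) were highest, against 39.8% of all genes. The median gene in that case was Sftpa1, which was not detected on any array.

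No other lung gene read here was past the cutoffs. A list of 41 other genes used in the lung, of which 40 had a probe (Rtkn2 had none), held 37 detected on all 4 arrays. By limma 0 of the 38 tested were past the cutoffs in either direction, against 0.583% of all genes tested as lower and 0.284% as higher. By the methods' t-test it was also 0. Shares that small leave few calls to expect among 38 genes, so nothing is read from the 0. An unadjusted limma p under 0.05 was reached by 2 of the 38, against 526 of all 18340 genes tested. The 2 were Muc1, an epithelial mucin, with a difference of −0.85 (SE 0.18), and Tbx5, a transcription factor of heart, limb and lung mesoderm, with −0.89 (SE 0.28). The median difference of the 40 genes was −0.15. Both HFD arrays lay under both CD arrays for 8 of 40, against 10.2% of all genes, and over them for 4, against 19.3%.

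The brightest genes in each group of that list all had differences within 2 standard errors of 0. In distal and type 2 epithelium, the lysosomal membrane gene Lamp3 differed by 0.18 (SE 0.18) and the protease Ctsh, which helps to mature SP-B and SP-C, by 0.08 (SE 0.26). For type 1 epithelium the values were −0.15 (SE 0.19) for Ager, the receptor for glycation end products, and 0.27 (SE 0.33) for Pdpn, podoplanin. Among airway genes the basal cell factor Trp63 differed by −0.08 (SE 0.20) and the secreted Bpifa1 by 0.08 (SE 0.22), and among bud factors and signals Bmp4 by −0.21 (SE 0.30) and Gata6 by 0.11 (SE 0.25). Slc34a2, the phosphate transporter of type 2 cells, Pgc, a pepsinogen, and Muc5b, an airway mucin, were not detected on any array. Leaving out HFD replicate 1 put Aqp5, a water channel, past the cutoffs as higher (1.56) and Cyp2f2 (−1.76), Bpifb1 (−1.04), Sox2 (−1.52) and Tbx5 (−1.18) as lower, and leaving out HFD replicate 2 put Irx2 (−1.15) as lower.

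Relatives of the 9 proteins were read to see whether a whole protein family moved. Of 45 relatives, 44 had a probe and 37 were tested. Of these, 2 were past the cutoffs as lower and 0 as higher, against 0.583% and 0.284% of all genes tested. The first was Ctse, cathepsin E, an aspartic protease like NAPSA, which is known from stomach epithelium and red cell precursors. It read 2.34 and 2.66 on CD and 0.09 and −0.04 on HFD, detected on every array, and fell by 2.48 on the log2 scale (SE 0.19). The groups did not overlap, and each was spread by much less than the gap between them. The other was Gkn1, a gastric protein with the BRICHOS domain that SP-C also carries. It read −4.37 and −4.65 on CD and −6.30 and −5.27 on HFD, and was not detected on HFD replicate 1. By these measured values Gkn1 fell by 1.27 (SE 0.39). Neither passed the adjustment over all probes.

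The other relatives were not past the cutoffs. The collectin relatives, 5 of 5 detected on all arrays, held Colec12 at a difference of −0.09 (SE 0.17) and Colec10 at 0.10 (SE 0.16). The saposin gene Psap, related to SP-B, differed by −0.09 (SE 0.20) and Psapl1 by 0.10 (SE 0.56). The BRICHOS genes Itm2c and Itm2b, integral membrane proteins, differed by 0.16 (SE 0.19) and −0.05 (SE 0.24). Gkn2, also on the BRICHOS list, differed by 1.33 (SE 0.58), and of the 8 genes 4 had a lower and 4 a higher mean in HFD. Of the NK2 homeobox genes, Nkx2-3, a factor of gut and spleen mesenchyme, differed by −0.14 (SE 0.26) and the heart factor Nkx2-5 by −0.84 (SE 0.49). The lysosomal protease Ctsd differed by −0.11 (SE 0.23) and the secretase Bace1 by −0.11 (SE 0.16). The ABCA transporters, 10 of 11 detected on all arrays, were led by Abca7 with 0.30 (SE 0.16) and the cholesterol exporter Abca1 with −0.02 (SE 0.20). Only 2 of 6 secretoglobins were detected, Scgb3a1 with 0.43 (SE 0.26) and Scgb2b2 with 0.13 (SE 0.48).

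Genes were then ranked by how closely their profile over the 4 arrays, centred on the gene's own mean, followed that of Sftpc, as the root mean square distance in log2 units. The distance is a description with no test, and with 4 arrays a short one is easily reached. Of 16590 genes detected on all 4 arrays, the nearest were Ghrh (0.37), Neurod2 (0.39), Ctse (0.40), Igfbpl1 (0.64) and Prl2a1 (0.65). Ghrh encodes a hypothalamic hormone, Neurod2 is a transcription factor of cortical neurons, and Prl2a1 belongs to the placental prolactin family. Scgb3a2 ranked 44 there, and Nkx2-1 and Sftpb could not be ranked because they were not detected in HFD.

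A further ranking took the 16813 genes detected on both CD arrays, whether or not on the HFD arrays. The 10 with the nearest measured values were, in alphabetical order, Ctse, Ctsr, Ghrh, Lamp5, Neurod2, Neurod6, Nkx2-1, Prl3a1, Psg17 and Tbr1. Of these, Nkx2-1, Tbr1, Neurod6, Prl3a1, Lamp5 and Ctsr were detected on neither HFD array and Psg17 on 1 of them, so their order and exact distance are not given. For Nkx2-1 only the CD arrays give detected values to compare. These were 2.73-fold apart for Nkx2-1 and 2.56-fold apart for Sftpc, with CD replicate 2 the higher. CD replicate 2 was also the higher for 13873 of all 22905 genes. Nkx2-1 entered this ranking through its detection in CD, so nothing is read from its place in it. Tbr1 and Neurod6 are further transcription factors of cortical neurons, Lamp5 is a membrane protein of neurons, and Prl3a1, Ctsr and Psg17 are placental genes.

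One further transcript, Sfta3-ps, the neighbour of Nkx2-1 in the genome, was looked up after its values were seen. It read −5.0 and −3.29 on CD, detected on both, and −8.03 and −7.32 on HFD, detected on neither. By the same bound on the means it was at least 3.10-fold lower. It was too dim on the HFD arrays to pass the filter for the fit.

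The same ranking for Sftpd, also made after its values were seen and over 16590 genes detected on all 4 arrays, gave a different company. The 10 nearest were Cyp21a1 (0.13), Stra8 (0.13), Pax8 (0.21), Aqp5 (0.27), Slc13a2 (0.28), Prl6a1 (0.28), Lrg1 (0.29), Akr1c18 (0.29), Kcne2 (0.29) and Calb1 (0.31), and Napsa ranked 34 (0.45). Cyp21a1 is the adrenal steroid 21-hydroxylase, Stra8 marks germ cells entering meiosis, Pax8 is a factor of kidney and thyroid, and Calb1 is a calcium-binding protein of renal tubule and neurons. All 10 were highest on HFD replicate 2, which follows from ranking by the Sftpd profile. On that array Cyp21a1 stood 4.26-fold and Stra8 5.15-fold over HFD replicate 1. Sftpd was among the genes least like Sftpc, at rank 16552 of 16590.

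**Figure D3:**
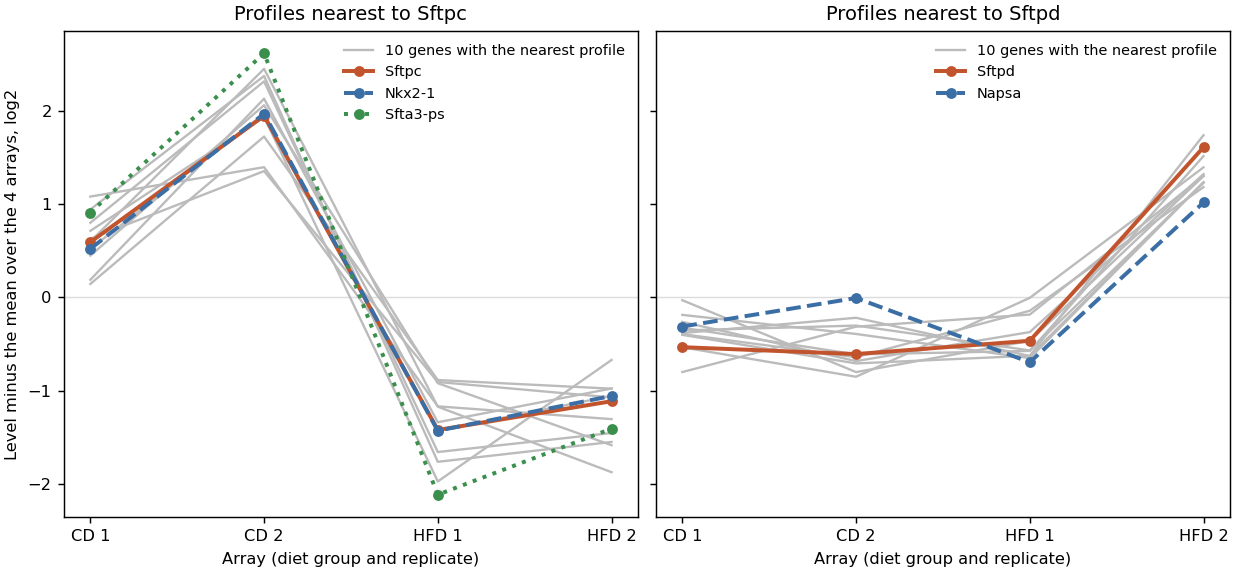
Level minus the gene's mean over the 4 arrays (log2, vertical axis) on each array (horizontal axis) for Sftpc, Nkx2-1 and Sfta3-ps (left) and for Sftpd and Napsa (right), with the 10 genes of nearest profile in grey. The genes on the left were chosen among those detected on both CD arrays, and Nkx2-1, which is among the 10, and Sfta3-ps were below detection on the HFD arrays, where only an upper limit is known. Sftpc and Nkx2-1 are highest on CD replicate 2, whereas Sftpd and Napsa are highest on HFD replicate 2.

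Marker genes of other tissues were read on the same arrays, since NKX2-1 and several of the other proteins are also made elsewhere. Beside each list stands the share of all genes tested that was past the cutoffs, 0.583% as lower and 0.284% as higher. Of 15 trophoblast genes 12 were tested, and 7 of these were past the cutoffs as lower and 0 as higher. The median difference of the 15 was −2.51. The 4 with the largest change among the 7 were Prl8a6 (at least 11.4-fold lower), Psg21 (−4.0), Tpbpb (−3.97) and Tpbpa (−3.91). The study itself reported these 4 as lowered on the same arrays. Since the list was chosen with earlier results of these arrays known, nothing is read from the count. The 2 brightest of the list, Psg23 (−0.19, SE 0.31) and Gcm1 (0.55, SE 0.49), were not past the cutoffs. Of the 15 genes 12 were highest on CD replicate 2, against 39.8% of all genes, and Sftpc and Nkx2-1 were highest on the same array. Of the 15, 9 were detected on all arrays and Syna on none. Their summed signal, in units of the 75th percentile, was 97.7 to 120.1 on CD and 78.1 to 93.3 on HFD. The part of trophoblast transcripts in the Sftpc and Nkx2-1 result was not tested.

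The tissues that share NKX2-1 with lung gave these values. Of 10 ventral forebrain genes 8 were tested, and Gad1, an enzyme of GABA synthesis, was past the cutoffs (at least 2.09-fold lower). A lower mean in HFD was found for 10 of 10, against 9825 of all 22905 genes. Both HFD arrays lay under both CD arrays for 2 of the 10, against 10.2% of all genes, and Gad2 was detected on CD replicate 1 only. The median was −0.49 and the summed signal 3.47 to 4.04 on CD and 2.65 to 3.0 on HFD. The brightest, the interneuron factors Lhx6 and Lhx8, differed by −0.23 (SE 0.23) and −0.24 (SE 0.30), and Six3 was not detected on any array. The part of forebrain transcripts in the Nkx2-1 result was not tested. Of 9 thyroid follicle genes 0 of 6 tested were past the cutoffs by limma and 0 had an unadjusted p under 0.05, and the median was 0.03. The iodide transporter Slc5a5 and the thyrotropin receptor Tshr were not detected on any array, while Hhex (0.19, SE 0.20), which liver also uses, and Tg (−0.09, SE 0.20) were.

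Kidney and gonad or adrenal genes, 2 lists chosen after the Sftpd values were seen, were read beside Sftpd and Napsa. Of 12 kidney genes 7 were highest on HFD replicate 2, and of 9 gonad and adrenal genes 6 were, against 16.9% of all genes. Calb1, on the kidney list, was already among the 10 genes nearest Sftpd. Because the lists were chosen with that pattern in view, nothing is read from these counts. Among those past the cutoffs as higher were Cdh16, the kidney cadherin, with 2.10 (SE 0.69), Cyp11a1, the side-chain cleavage enzyme of steroid synthesis, with 1.87 (SE 0.52), and Nr5a1, its regulator, with 1.20 (SE 0.31), and 0 were lower. The medians were 0.47 for kidney and 0.86 for gonad and adrenal. The summed signal of the kidney list was 5.28 to 5.37 on CD and 6.87 to 7.86 on HFD, and that of the gonad and adrenal list 34.1 to 51.0 and 37.9 to 45.7, with Umod not detected on any array. Their part in the Sftpd and Napsa values was not tested.

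The remaining lists bear on organs that lie near the fetal liver. Of 17 stomach, gut and pancreas genes, Gkn1 and the mucosal peptide Tff2 (−1.10, SE 0.33) were past the cutoffs as lower and 0 as higher, the median was −0.17, and the brightest, Lgals4 and Cpa1, differed by 0.08 (SE 0.37) and −0.36 (SE 0.50). By limma 0 of 9 heart, 0 of 8 skeletal muscle and 0 of 5 mesothelium genes were past the cutoffs, with 1 heart gene, Nppb, a natriuretic peptide that was not detected on the CD arrays (at least 1.44-fold higher), at an unadjusted p under 0.05. Medians were 0.35, −0.09 and 0.08. The brightest were Myh7 (0.04, SE 0.56) and Tnnt2 (−0.10, SE 0.38) in heart, Myh3 (0.04, SE 0.52) and Myl1 (0.01, SE 0.29) in skeletal muscle, and Wt1 (0.70, SE 0.43) and Msln (0.34, SE 0.31) in mesothelium. The hepatocyte and erythroid medians were −0.03 and 0.06, with 0 of 10 and 0 of 8 past the cutoffs and 0 at an unadjusted p under 0.05.

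**Figure D4:**
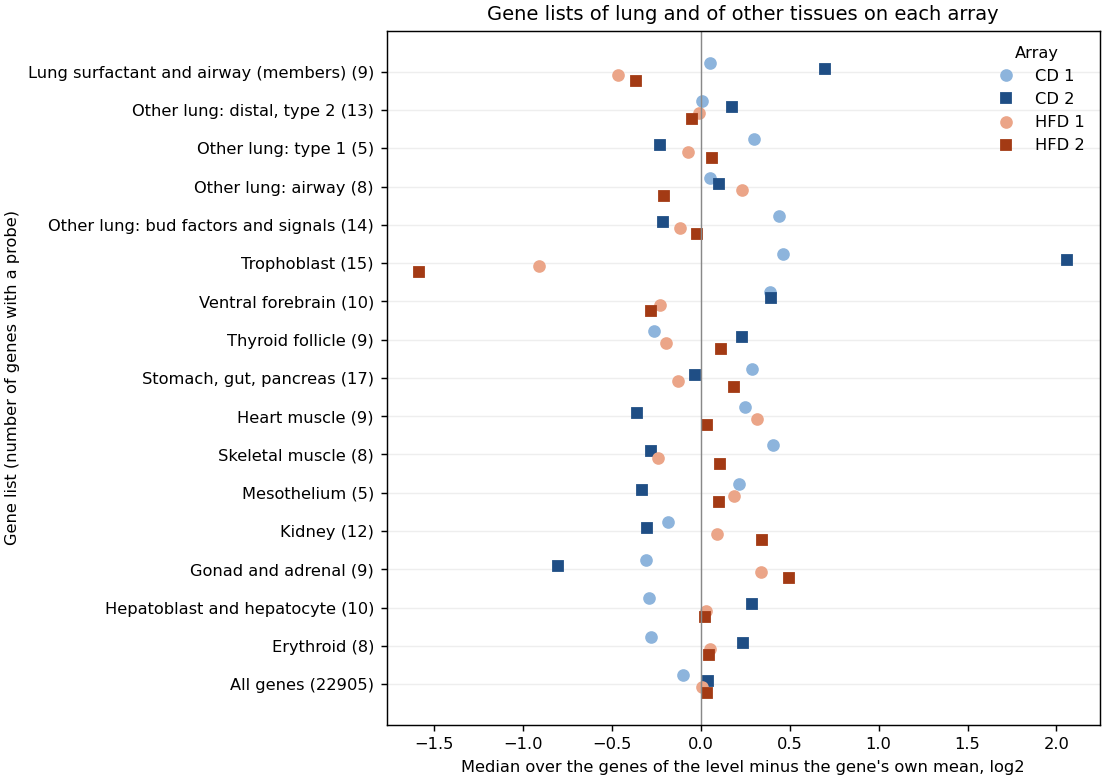
Median over the genes of each list (vertical axis, with the number of genes with a probe) of the level minus the gene's own mean over the 4 arrays (log2, horizontal axis), with 1 symbol per array, offset vertically for legibility. The surfactant and airway genes and the trophoblast genes both reach furthest right on CD replicate 2 (0.70 and 2.06). So do ventral forebrain (0.39), hepatocyte (0.29), erythroid (0.23), thyroid (0.23), other lung distal (0.18) and all genes (0.041). The other lung lists stay between −0.23 and 0.44.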

How the data were processed

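Fetal livers were profiled on 4 single-colour Agilent arrays. The authors read the images with Agilent Feature Extraction 11.0.1.1 (submitters' processing notes) and deposited, per spot, a background-subtracted intensity not scaled between arrays. They also deposited scores of 0 or 1 that flag outlier and saturated spots and those well above background, and a table of normalized signal for 41471 probes, each column of which was the intensity divided by 1 constant (702 to 1068). On each array 39 to 58 spots were flagged, and 0 were saturated.

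From the intensities, log2 was taken, flagged spots were left out, spots of a probe were averaged and the 75th percentile was subtracted. Following the study's methods, probes below the 20th percentile of an array, or with a CV of the log2 signal over 50% in both groups, were left out, which removed 14980 and 2 of 56596 probes. The diets were compared in R 4.3.3 with limma 3.58.1 (lmFit, eBayes, all 4 arrays, no covariates) and adjusted by Benjamini-Hochberg over 41614 probes. Steps were tested on simulated data. Transcript accessions gave 32989 probes 1 of 22905 RefSeq symbols (GRCm38.p6), and a gene was read from the probe with the highest mean level. Probes of close relatives, such as the Psg and Prl genes, may bind more than 1 of them.

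The members and gene lists were chosen with earlier results of these data known. Named were every member with every probe, in lung and family lists each gene past the cutoffs and the 2 brightest per group, in other tissue lists up to 4 past the cutoffs and the 2 brightest, and the 10 genes nearest Sftpc. The kidney and gonad lists, Gkn2, Sfta3-ps and the Sftpd ranking fall outside this rule. Some genes under the rule are not reported here. Rtkn2, Scgb2a2, Duox2, Prl2c2, Muc16, Hbb-bs and Insl3 had no named probe. Alternatives covered filters, scaling, background correction, the methods' t-test, the replicate block and leaving out each array. All arrays lay on 1 slide and 1 scan. Tables and plots were made in Python 3.11.15 with pandas 2.3.3, numpy 2.4.6 and matplotlib 3.10.9.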

Additional observations from a re-analysis of the deposited data

How the results depend on the processing

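The number of probes past the cutoffs, 118 higher and 219 lower, moved with the processing. It was 376 and 479 without the filter on dim probes, 16 and 44 with normexp background correction (run on the median brightness of each spot, offset 50), 41 and 56 with the methods' t-test, 21 and 25 with Welch's correction, and 72 higher among probes detected on both arrays of a group. Leaving out each array in turn gave 195 to 837 higher and 398 to 501 lower, the highest without CD replicate 1 and without HFD replicate 2. The replicate number did not pair the arrays (correlation of deviations −0.11). A replicate block gave 184 higher and 277 lower, and put 1 member, Sftpd, past the cutoffs as higher. The crossed pairing, added after seeing the data, gave 184 higher and 272 lower. Adjusted calls were 19 with the crossed pairing, 26 without HFD replicate 1, and 0 under the other settings run. Of the 9 lung surfactant and airway genes, 3 were past the cutoffs as lower, but 1 with normexp (Sftpc, −1.83, against −0.61 for Nkx2-1 and −0.35 for Sftpb), 0 with the methods' t-test, 0 with Welch's correction and 2 to 4 when 1 array was left out. As higher, 0 to 2 were past the cutoffs, the 2 being Sftpd and Napsa without HFD replicate 1. The median of the 9 genes, −0.79, was −0.22 with normexp, −0.27 with the detection filter and −1.13 (without CD replicate 1) to 0.040 (without CD replicate 2) when 1 array was left out. The medians of −0.22 and 0.040 are the values of Sftpa1, which was not detected on any array. Taking the mean over all probes moved Nkx2-1 to −0.96 and Sftpb to −0.52, since their second probes were not detected. For the other lung genes, leaving out 1 array gave 0 to 1 higher and 0 to 4 lower, and their median of −0.15 moved by less than the spread under every setting run. Of the other values, 217 moved by less than the spread between replicates, 33 by more, and 0 reversed a call. Small list medians did change sign when 1 array was left out, to −0.24 for thyroid and −0.22 for erythroid (without CD replicate 1), 0.23 for muscle (without CD replicate 1), 0.14 for gut (without HFD replicate 1), and −0.079 for heart and 0.39 for hepatocyte (without CD replicate 2). The cause of these changes was not tested. The median of all genes was 0.13 without CD replicate 2 and 0.063 without HFD replicate 1, and 0.036, −0.018 and 0.00039 with the deposited table, normexp and quantile normalization. No block for slide or scan was possible, with 1 of each. Signal near background limits Nkx2-1, Sftpb, Sftpa1 and Scgb1a1.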

Other observations

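Sfta2, a surfactant-associated gene outside the lists that was looked up after the values were seen, was detected on all 4 arrays at −1.76 and −1.82 on CD and −1.62 and −2.18 on HFD, a difference of −0.11 (SE 0.25), and did not share the profile of Sftpc. The lung bud factors and signals had a pattern of their own, in that 12 of 14 were highest on CD replicate 1, as were 8 of 8 skeletal muscle genes, against 23.8% of all genes. The median of the bud list was −0.58 between the replicates numbered 1 and 0.24 between those numbered 2, and that of the muscle list −0.61 and 0.39. These patterns were noticed in the values, and no test was made of them.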
